A study of Rattus norvegicus with 12 samples.

Results

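The 10 genes described here are known from the intercalated cells of the kidney collecting duct, where 9 encode parts of acid, base or ammonia transport and Foxi1 encodes a transcription factor: Foxi1, Atp6v1b1, Atp6v1g3, Atp6v1c2, Atp6v0a4, Slc4a1, Slc4a9, Slc26a4, Slc26a7 and Rhcg. They were taken by symbol from 2 tables of FPKM (fragment counts set per transcript length and sequencing depth), and all 10 were listed once in each table, among 22132 entries of the control and adenine table and 32623 of the sham and UUO table. All 10 passed the minimum of 0.5 FPKM in at least 3 of 6 samples, as did 15029 and 15043 entries in all. The rule took the genes by their names, but the genes were chosen with earlier results of these data known.

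RNA was sequenced from kidney tissue of 12 wild-type male Sprague-Dawley rats, bought at 8 weeks of age, in 4 groups of 3. Adenine rats received adenine at 220 mg/kg by gavage each day for 3 weeks, and control rats received saline over the same 3 weeks. In UUO (unilateral ureteral obstruction) rats the left ureter was ligated 2 weeks before the kidney was taken, and sham rats had the operation without ligation. Both treatments are used as models of renal fibrosis, and the comparisons below ask how the acid-base genes of the collecting duct stood in each model against its own control. The adenine model acts on both kidneys through crystal deposition, whereas UUO blocks the outflow of a single kidney, so agent, duration and route differ together between the models. The 2 tables were made separately, so each change was taken within its own table.

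Intercalated cells secrete either acid or bicarbonate into the urine. Type A cells carry a proton pump, the V-ATPase, on the apical side and the chloride-bicarbonate exchanger AE1 (Slc4a1) on the basolateral side. Type B cells carry the exchanger pendrin (Slc26a4) on the apical side and AE4 (Slc4a9) on the basolateral side. The forkhead factor Foxi1 is required for these cells to form, and the ammonia channel Rhcg lets ammonia pass into the lumen, where it traps the secreted protons. Loss of ATP6V1B1, ATP6V0A4, SLC4A1 or FOXI1 function causes distal renal tubular acidosis in people.

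All 10 genes were lower in the treated kidneys of both models at an adjusted p under 0.05, and for all 10 the highest treated sample lay below the lowest control or sham sample. Of all tested entries, 19.9% were lower by the same rule with adenine and 14.4% after UUO, and 23.0% and 15.7% had treated samples that lay wholly below their controls. Entries that were higher by this rule made up 39.6% with adenine and 56.1% after UUO. A DEG (differentially expressed gene) needed, besides, a log2 fold change of 2 or more in size. By that rule 7 of the 10 were lower in the adenine model, against 5.03% of all entries lower and 10.7% higher, and 4 of the 10 were lower in the UUO model, against 4.21% lower and 13.2% higher. With adenine the 10 genes had a median log2 fold change of -2.77 and all tested entries one of 0.30, and after UUO these medians were -1.79 and 0.62. Slc26a7 reached the minimum FPKM only through its control and sham samples, so its lower treated level was built in. Without it, 9 of 9 genes were lower and without overlap in each model, 6 were DEGs with adenine and 3 after UUO, and the medians were -2.58 and -1.70. Adjusted p-values throughout are those of limma with the Benjamini-Hochberg adjustment over all tested entries of a table. In whole tissue, fewer intercalated cells and less RNA per cell cannot be told apart.

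**Figure D1:**
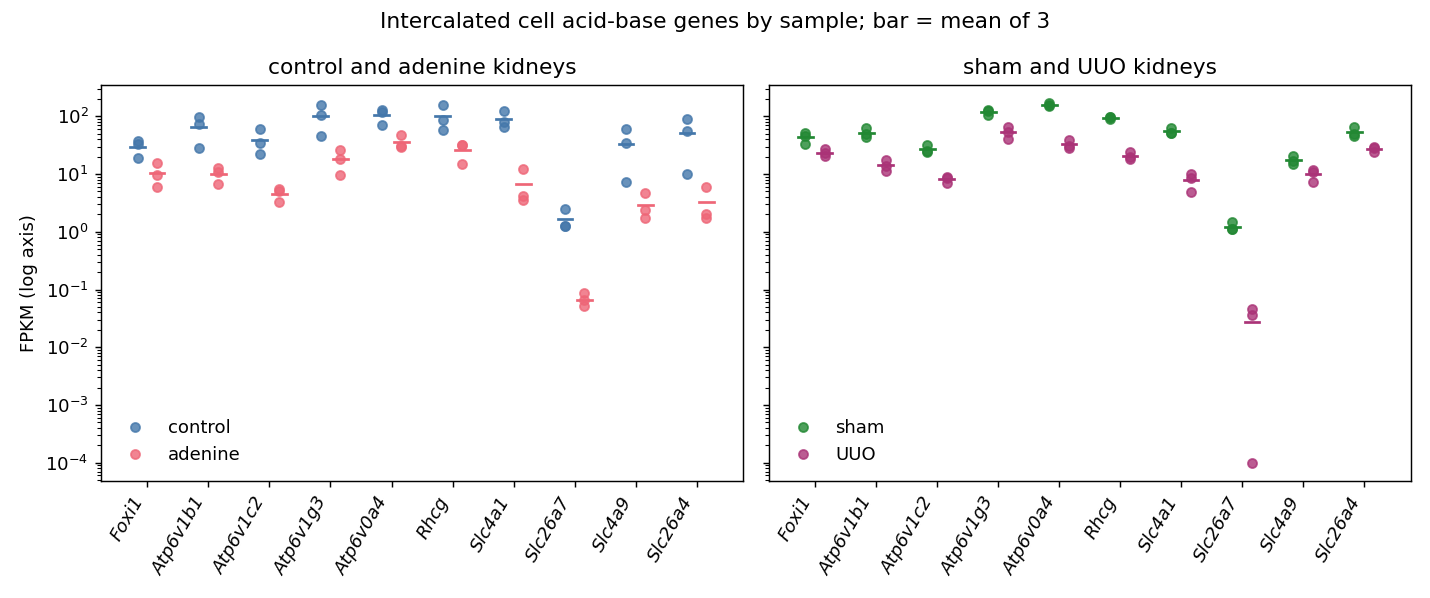
FPKM of the 10 genes on a log axis, with 1 point per kidney and a bar at the mean of 3, for control and adenine kidneys (left) and sham and UUO kidneys (right). For each gene the treated points lie below all points of the matching control group, and Slc26a7 is the gene with the lowest level in all 4 groups.

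Libraries differed within groups, above all in the first table. Control 2 had the lowest value of its group for 9 of the 10 genes and the highest for Slc26a7, with a median deviation of -0.68 on the log2 scale, and control 3 had the highest value for 9. Control 2 was also low in genes of the neighbouring distal convoluted tubule: the sodium chloride cotransporter Slc12a3 stood at 12.9 FPKM there and at 197 and 164 in the other controls, and the calcium-binding protein Calb1 at 27.5 against 407 and 190. In the adenine group the second kidney stood out in the opposite way, with Slc12a3 at 88.9 against 11.5 and 14.8 and Calb1 at 140 against 9.49 and 10.4. Both genes belong to a list of 5 genes of the thick limb and distal convoluted tubule, and the list did not move as one. The thick limb cotransporter Slc12a1 went the other way, at 229 FPKM in control 2 against 135 and 160 and at 32.8 FPKM in adenine 2 against 94.4 and 51.7. Umod, the uromodulin gene of the thick limb, was at 1207 FPKM in control 2 against 1521 and 1588, and Pvalb was at or near 0 in all 6 kidneys. The part of these libraries in the results was not tested. With both of them left out, all 10 genes were still lower at an adjusted p under 0.05 and 9 rather than 7 were DEGs. Spread within groups was wider in the control group, where the coefficient of variation of the 10 genes ran from 28.6% to 77.7%, than in the sham group, where it ran from 5.55% to 22.2%.

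**Figure D2:**
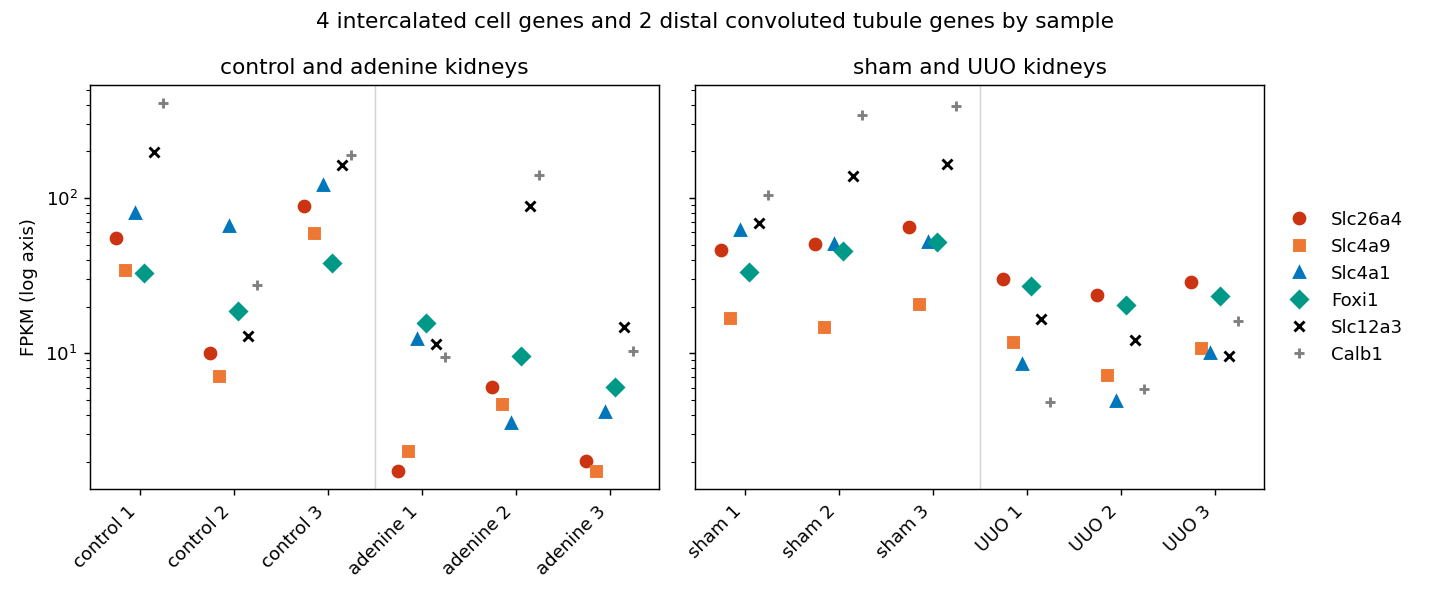
FPKM on a log axis in each of the 12 kidneys for Slc26a4, Slc4a9, Slc4a1 and Foxi1 and for the distal convoluted tubule genes Slc12a3 and Calb1. In control 2 all 6 genes are at their lowest of the control group, and in adenine 2 Slc12a3, Calb1, Slc26a4 and Slc4a9 are at their highest of the adenine group.

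Foxi1 fell in both models, and its fall was the second smallest of the 10 in each. Its level was 32.7, 18.7 and 37.9 FPKM in the control kidneys and 15.8, 9.62 and 6.08 FPKM in the adenine kidneys. It was 33.2, 45.4 and 52.3 FPKM in the sham kidneys and 27.0, 20.5 and 23.3 FPKM in the UUO kidneys. The groups did not overlap in either model, although control 2 and adenine 1 lay close to each other. The log2 fold change was -1.54 ± 0.40 (SE, n = 3 against 3, adjusted p = 0.0141) with adenine and -0.87 ± 0.19 (adjusted p = 0.00526) after UUO. By the ratio of means, 35.3% of the control level was left with adenine and 54.1% of the sham level after UUO.

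The V-ATPase pumps protons with a cytosolic V1 sector that splits ATP and a membrane V0 sector that carries the protons. Atp6v1b1, Atp6v1c2 and Atp6v1g3 encode the V1 subunits B1, C2 and G3, and Atp6v0a4 encodes the V0 subunit a4. Each is the kidney-enriched form of a subunit that most other cells make from another gene. Because Foxi1 binds forkhead motifs in the Atp6v1b1 promoter, the forkhead core TAAACA, which reads TGTTTA on the opposite strand, was looked for on both strands in RefSeq promoter windows of the GRCr8 build (250 bases before to 50 after the start of the gene). A window was given for 8 of the 10 genes, and 2 of these 8 held the motif, against 13.7% of 33469 windows. Atp6v1b1 held it 93 bases before the start. Atp6v1g3 held it at 234 and at 221 bases before the start. The windows were otherwise without it in Foxi1, Atp6v1c2, Atp6v0a4, Slc4a9, Slc26a4 and Rhcg. The 250 bases before the start of both genes are shown because they hold the matches, which stand in capitals, and both lie on the plus strand. A match is a run of letters and not a measured site of binding.
Atp6v1b1, chr4:117781194-117781443: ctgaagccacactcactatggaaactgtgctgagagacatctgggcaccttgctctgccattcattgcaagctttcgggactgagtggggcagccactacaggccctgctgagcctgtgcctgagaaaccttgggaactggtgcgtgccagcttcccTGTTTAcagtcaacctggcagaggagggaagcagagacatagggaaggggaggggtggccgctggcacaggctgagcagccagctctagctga
Atp6v1g3, chr13:52362082-52362331: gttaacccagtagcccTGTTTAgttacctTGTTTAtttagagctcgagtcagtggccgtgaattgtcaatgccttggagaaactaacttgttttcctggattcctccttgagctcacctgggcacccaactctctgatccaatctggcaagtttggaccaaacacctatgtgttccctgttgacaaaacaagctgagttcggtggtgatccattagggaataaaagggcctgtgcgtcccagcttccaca

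In the V1 sector the 3 subunit genes fell in both models, and all 3 were DEGs in the adenine model. After UUO none of the 3 was a DEG, although Atp6v1b1 passed under 4 and Atp6v1c2 under 2 of 15 other settings. Atp6v1b1, with the promoter shown above, was at 73.1, 28.4 and 98.4 FPKM in control and at 12.6, 10.8 and 6.81 FPKM in adenine kidneys. It was at 43.8, 50.4 and 63.5 FPKM in sham and at 13.6, 11.5 and 17.6 FPKM in UUO kidneys. Its log2 fold change was -2.58 ± 0.47 with adenine (adjusted p = 0.00347) and -1.88 ± 0.20 after UUO (adjusted p = 0.000204). Even the low control 2 stood above every adenine kidney. Atp6v1g3 was at 104.8, 46.6 and 156 FPKM in control and at 26.1, 18.0 and 9.75 FPKM in adenine kidneys. It was at 104.7, 125 and 131 FPKM in sham and at 53.0, 41.2 and 65.7 FPKM in UUO kidneys, where it was the highest of the 10 genes. The log2 fold changes of Atp6v1g3 were -2.45 ± 0.51 (adjusted p = 0.00617) and -1.19 ± 0.18 (adjusted p = 0.00106). Atp6v1c2 showed the tightest groups of the 3 in both treatments. It was at 34.2, 21.9 and 61.6 FPKM in control and at 5.42, 5.07 and 3.35 FPKM in adenine kidneys. It was at 24.9, 24.3 and 31.9 FPKM in sham and at 8.80, 7.14 and 8.70 FPKM in UUO kidneys. Its log2 fold change was -2.96 ± 0.38 with adenine (adjusted p = 0.000783) and -1.70 ± 0.15 after UUO (adjusted p = 9.66e-05).

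In the V0 sector Atp6v0a4 fell in both models and was a DEG in the UUO model. It was at 117, 71.5 and 129 FPKM in control and at 29.5, 48.0 and 31.0 FPKM in adenine kidneys. It was at 156, 171 and 153 FPKM in sham and at 28.1, 30.8 and 39.2 FPKM in UUO kidneys, so that 34.2% of the control mean and 20.4% of the sham mean was left. Its log2 fold change was -1.54 ± 0.28 with adenine (adjusted p = 0.00332) and -2.30 ± 0.13 after UUO (adjusted p = 2.6e-05). With control 2 and adenine 2 both left out, the adenine value was -2.02.

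The other 19 V-ATPase genes, which encode the widely used subunits, other organ-specific forms and 2 accessory proteins, moved in both directions. In the adenine model 3 were lower, 6 higher and 10 did not pass the adjusted p of 0.05, against 19.9% of all tested entries lower and 39.6% higher. After UUO 11 were lower, 5 higher and 3 did not pass, against 14.4% of all tested entries lower and 56.1% higher. The median log2 fold change of the 19 genes was -0.01 with adenine and -0.28 after UUO. The direction of this group depended on the scaling: with median-of-ratios scaling 8 were lower and 5 higher with adenine and 15 lower and 1 higher after UUO, and with equal sums in every sample 2 and 8, and 7 and 5. Median-of-ratios scaling shifted the median of all entries by 0.29 with adenine and 0.58 after UUO, and the 4 intercalated cell forms had negative log2 fold changes under each scaling. Among the 19, Atp6v0e2, a form of the membrane subunit e, fell the most with adenine (log2 fold change -1.25), and Atp6v0d2, a form of subunit d, fell the most after UUO (-1.42). Tcirg1, the a3 subunit best known from osteoclasts and macrophages, rose the most in both, from 7.52 to 61.3 FPKM with adenine (log2 fold change 2.98 ± 0.22) and from 5.20 to 28.9 FPKM after UUO (2.41 ± 0.23). All 8 macrophage markers were higher DEGs in both models, against 10.7% of all tested entries with adenine and 13.2% after UUO. Itgam among them reached the minimum FPKM only through the treated kidneys, so its higher level was built in. The summed levels of the 8 markers were 193 to 253 FPKM in control, 7013 to 13557 in adenine, 219 to 343 in sham and 1766 to 2629 in UUO kidneys. Their part in the Tcirg1 result was not tested.

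**Figure D3:**
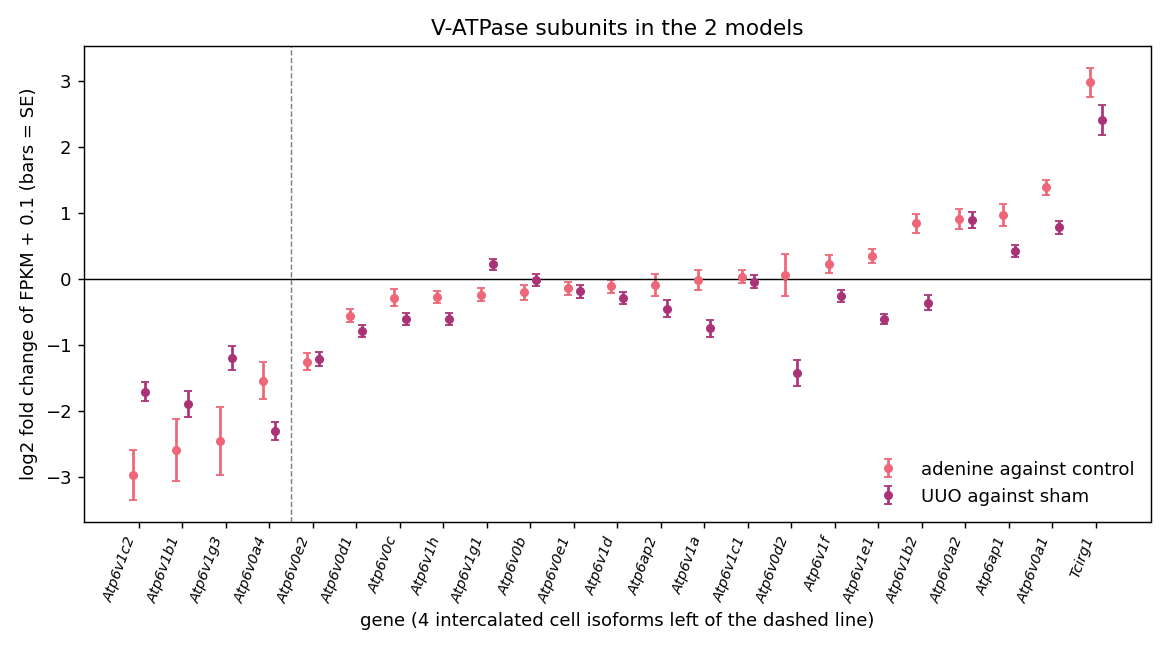
Log2 fold change of FPKM + 0.1 with its standard error for 23 V-ATPase genes in both models, with the 4 intercalated cell forms to the left of the dashed line. The 4 forms range from -2.96 to -1.19, and the other 19 from -1.42 to 2.98.

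Within a library, the share of an intercalated cell form in the pair with its widely used counterpart was lower in all treated kidneys. Subunit B1 made up 43.6%, 28.3% and 58.9% of the summed Atp6v1b1 and Atp6v1b2 FPKM in control kidneys and 8.06%, 6.99% and 4.95% in adenine kidneys. It made up 30.4%, 29.8% and 35.7% in sham kidneys and 14.3%, 10.5% and 17.8% in UUO kidneys. The counterpart Atp6v1b2 itself was at a mean of 78.5 FPKM in control and 140 FPKM in adenine kidneys, and at 111 and 86.8 FPKM in sham and UUO kidneys. Subunit a4 made up 90.9%, 86.6% and 91.8% of the Atp6v0a4 and Atp6v0a1 pair in control kidneys and 46.3%, 63.5% and 51.8% in adenine kidneys. It made up 92.6%, 92.6% and 91.4% in sham kidneys and 53.0%, 57.4% and 63.6% in UUO kidneys. Here the a1 gene, which serves a form of the pump found in many cells, stood higher in treated kidneys, at 30.2 against 11.4 FPKM with adenine and at 23.4 against 13.5 FPKM after UUO. The log2 ratio of a4 to a1 was lower by 2.93 and 3.09.

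The C and G pairs behaved alike. Subunit C2 made up 30.4% to 58.2% of its pair with Atp6v1c1 in control and 6.17% to 9.78% in adenine kidneys, and 33.8% to 36.6% in sham and 13.7% to 15.4% in UUO kidneys. Atp6v1c1 itself lay at 49.1 and 50.1 FPKM in control and adenine and at 50.3 and 48.9 FPKM in sham and UUO kidneys. Subunit G3 made up 23.7% to 51.8% of its pair with Atp6v1g1 in control, 7.00% to 18.3% in adenine, 42.5% to 50.2% in sham and 20.1% to 28.9% in UUO kidneys. For all 4 pairs the exact two-sided permutation test of 3 against 3 kidneys gave p = 0.1 in each model, the smallest value it allows, and 0.111 after adjustment over the 10 tests of 5 pairs, so this design could not reach 0.05. A plain FPKM ratio within a library does not change when all values of that library are multiplied by a common factor. This does not cover quantile normalization, or the tested log2 ratios, which had 0.1 added to each FPKM.

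**Figure D4:**
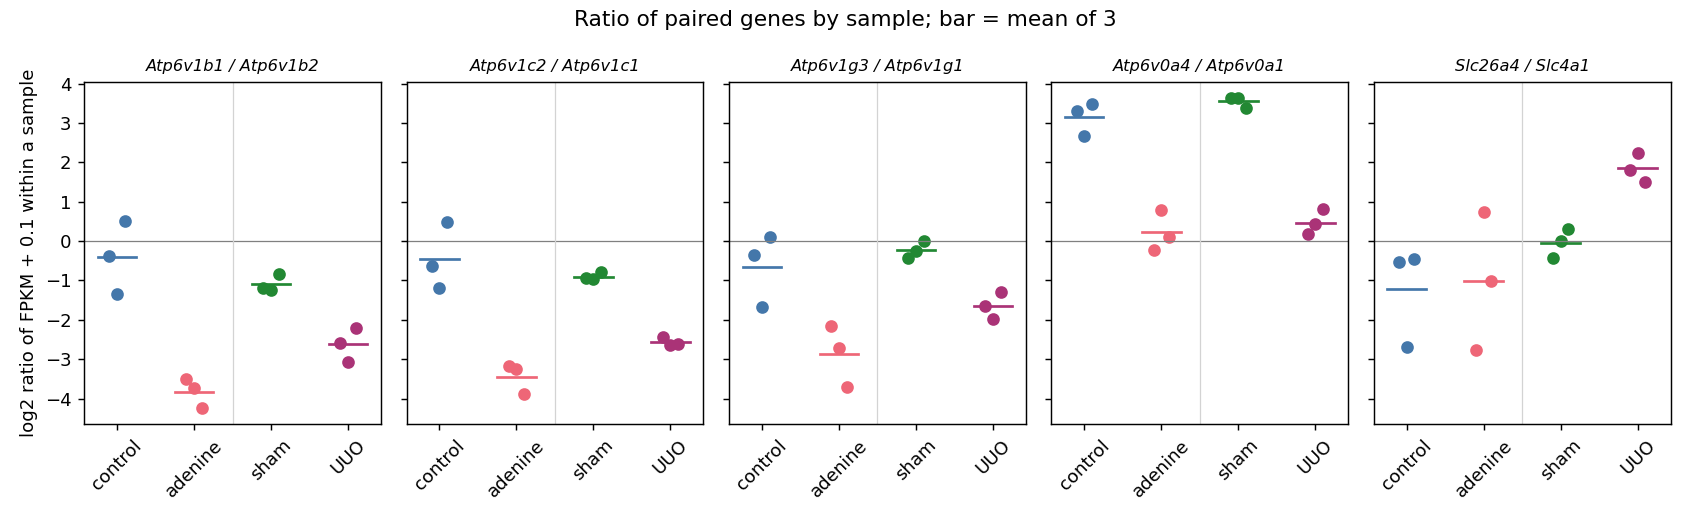
Log2 ratio of FPKM + 0.1 of paired genes within each kidney, with 1 point per kidney and a bar at the mean of 3. For the 4 subunit pairs each treated point lies below all control or sham points, whereas the ratio of Slc26a4 to Slc4a1 overlaps between control and adenine kidneys and is higher in all 3 UUO kidneys than in the sham kidneys.

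Of the type A exchangers, Slc4a1 encodes AE1, which returns bicarbonate to the blood, and was a DEG in both models. It was at 79.6, 65.7 and 122 FPKM in control and at 12.4, 3.57 and 4.17 FPKM in adenine kidneys. It was at 61.9, 50.6 and 52.3 FPKM in sham and at 8.49, 4.96 and 10.1 FPKM in UUO kidneys. The highest treated kidneys, adenine 1 and UUO 3, stayed several times below the lowest control and sham kidneys. The log2 fold change was -3.89 ± 0.48 with adenine (adjusted p = 0.000669) and -2.85 ± 0.26 after UUO (adjusted p = 0.000113). AE1 is also the band 3 protein of red cells. In the adenine model 4 of 7 tested erythroid genes were lower as well, against 19.9% of all tested entries. The summed level of the 10 erythroid markers listed once was 1002 to 1997 FPKM in control and 212 to 844 FPKM in adenine kidneys. Without control 2 and adenine 2, 1 of the 7 tested erythroid genes was lower. Their part in the Slc4a1 result was not tested. In the UUO model none of 5 tested erythroid genes passed in limma at an adjusted p of 0.05 (1 did unadjusted), and the summed level of 8 erythroid markers was 286 to 645 FPKM in sham and 302 to 2088 FPKM in UUO kidneys. The highest of these sums was in UUO 1, where Slc4a1 was at 8.49 FPKM. The red cell membrane gene Rhag was listed at the lowest value of its table in 11 of the 12 kidneys and at 0.0724 FPKM in control 3.

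Slc26a7, a basolateral chloride and bicarbonate transporter of the outer medulla, had the lowest level of the 10 genes. It was at 1.28, 2.52 and 1.25 FPKM in control and at 0.0510, 0.0855 and 0.0646 FPKM in adenine kidneys. It was at 1.48, 1.12 and 1.10 FPKM in sham kidneys, and in UUO kidneys it was at 0.0453 and 0.0361 FPKM and, in UUO 1, at 0.0001, the lowest value that this table holds. It passed the minimum only through its control and sham samples, so a lower treated level was built into its entry to the test. The log2 fold change was -3.35 ± 0.35 with adenine (adjusted p = 0.000349) and -3.40 ± 0.33 after UUO (adjusted p = 0.000161), and both sizes depended on the value added before the logarithm. With 1 in place of 0.1 they were -1.30 and -1.12, and with 0.01 they were -4.40 and -5.38. The number of reads behind these low values is unknown.

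The type B genes Slc4a9 and Slc26a4 fell in both models, and the groups lay far closer together after UUO than with adenine. Slc4a9, which encodes AE4, was at 34.4, 7.16 and 59.4 FPKM in control and at 2.36, 4.74 and 1.75 FPKM in adenine kidneys. It was at 16.8, 14.8 and 20.9 FPKM in sham and at 11.8, 7.20 and 10.7 FPKM in UUO kidneys. The log2 fold change of Slc4a9 was -3.13 ± 0.78 with adenine (adjusted p = 0.0122) and -0.83 ± 0.22 after UUO (adjusted p = 0.0122). Slc26a4 encodes pendrin, which moves bicarbonate into the urine in exchange for chloride. It was at 55.4, 10.03 and 88.4 FPKM in control and at 1.74, 6.04 and 2.03 FPKM in adenine kidneys. It was at 46.2, 50.3 and 65.0 FPKM in sham and at 30.0, 23.7 and 28.8 FPKM in UUO kidneys. Its log2 fold change was -3.67 ± 0.85 with adenine (adjusted p = 0.00938) and -0.96 ± 0.16 after UUO (adjusted p = 0.00145). Of the mean control level 6.38% of Slc26a4 and 8.76% of Slc4a9 was left with adenine, and of the sham level 51.1% and 56.7% was left after UUO. Both genes were at the bottom of their group in control 2 and at the top in adenine 2, as were Slc12a3 and Calb1. Without these 2 libraries the adenine log2 fold changes were -5.14 for Slc26a4 and -4.41 for Slc4a9.

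Rhcg, the ammonia channel, was at 85.2, 58.5 and 157 FPKM in control and at 32.03, 32.01 and 14.8 FPKM in adenine kidneys. It was at 98.1, 89.1 and 98.4 FPKM in sham and at 18.1, 19.6 and 24.1 FPKM in UUO kidneys. The sham and UUO kidneys each agreed closely among themselves and stood far apart. The log2 fold change was -1.89 ± 0.44 with adenine (adjusted p = 0.0091), short of the DEG threshold, and -2.21 ± 0.12 after UUO (adjusted p = 2.22e-05), past it. With both second libraries of the first table left out the adenine value was -2.40 and Rhcg was a DEG there too. Rhbg, the related ammonia transporter of the basolateral side, which is named here after its values were seen, fell by 2.81 with adenine and by 2.28 after UUO on the log2 scale.

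**Figure D5:**
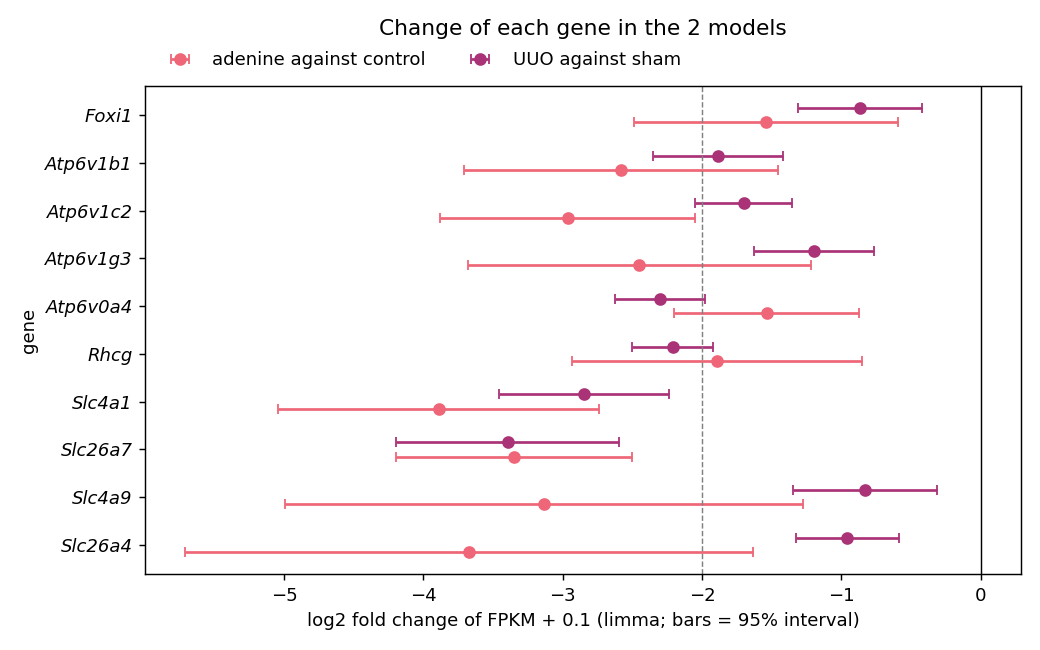
Log2 fold change of FPKM + 0.1 for each of the 10 genes in both models, with the 95% interval of limma; the dashed line marks the DEG threshold of -2. All intervals lie below 0, and those of Slc4a9 and Slc26a4 are widest in the adenine model and closest to 0 in the UUO model, together with Foxi1.

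The change was then compared between the models as the UUO minus the adenine log2 fold change, with its own test. The difference passed an adjusted p of 0.05 for 3 of the 10 genes, against 27.0% of 13486 symbols in either direction and 21.7% with the higher value in UUO. It was 2.71 ± 0.87 for Slc26a4 (95% interval 0.84 to 4.58, adjusted p = 0.0342), 2.30 ± 0.81 for Slc4a9 (0.56 to 4.04, adjusted p = 0.0495) and 1.26 ± 0.41 for Atp6v1c2 (0.38 to 2.14, adjusted p = 0.0365). The share of the genes was close to that of all symbols, and the calls did not hold under every setting: the count was 5 without control 2 and 0 without control 1, without control 3 or without adenine 3, where 3 genes each were under 0.05 unadjusted. The difference was positive for all 3 genes under each of the 22 other settings, with 2.08 to 4.19 for Slc26a4, 1.67 to 3.58 for Slc4a9 and 0.87 to 1.70 for Atp6v1c2. It was not called for Atp6v1g3 (1.26, 95% interval 0.08 to 2.43, adjusted p = 0.101), Slc4a1 (1.04, -0.13 to 2.22), Atp6v1b1 (0.70, -0.40 to 1.80) or Foxi1 (0.67, -0.27 to 1.62). Values on the other side of 0, with a deeper fall after UUO, were found for Atp6v0a4 (-0.77, -1.43 to -0.10, adjusted p = 0.0796), Rhcg (-0.32, -1.30 to 0.66) and Slc26a7 (-0.05, -1.10 to 1.00), and none of the 3 was called. The intervals of Rhcg and Slc26a7 leave room for sizeable differences in both directions. Those of Slc4a1, Atp6v1b1 and Foxi1 held 0 but lay mainly on the positive side. The intervals of Atp6v1g3 and Atp6v0a4, which are not adjusted for the number of tests, left out 0.

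The balance of the type B exchanger Slc26a4 and the type A exchanger Slc4a1 was read within each library as their ratio. After UUO the ratio of Slc26a4 to Slc4a1 was 3.53, 4.78 and 2.86, against 0.746, 0.995 and 1.24 in the sham kidneys. The groups did not overlap, and the log2 ratio was higher by 1.89 (exact permutation p = 0.1, the smallest possible, n = 3 against 3). Leaving out any kidney gave 1.70 to 2.06. In the adenine model the log2 ratio differed by 0.22 (exact permutation p = 1, n = 3 against 3) and the groups overlapped. Leaving out any kidney gave -0.65 to 1.10, with -0.52 without control 2, -0.65 without adenine 2 and positive values otherwise. The genes thus kept different shares of their levels after UUO, with 51.1% left of Slc26a4 and 14.3% left of Slc4a1.

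The order of mean levels in each group is given as read from FPKM, which is scaled by transcript length. In sham kidneys Atp6v0a4 (160 ± 9.75 FPKM, SD, n = 3) was followed by Atp6v1g3 (120 ± 13.9) and Rhcg (95.2 ± 5.29), without overlap between neighbours. Next came Slc4a1, Slc26a4, Atp6v1b1 and Foxi1 at means of 54.9 to 43.6 FPKM, where each neighbour overlapped the next, and then, without overlap, Atp6v1c2, Slc4a9 and Slc26a7. In UUO kidneys Atp6v1g3 led with 53.3 ± 12.3 FPKM, Slc26a4 and Foxi1 followed Atp6v0a4 at 27.5 ± 3.32 and 23.6 ± 3.27 FPKM, and Slc4a1 was ninth at 7.84 ± 2.62 FPKM. The control group had Atp6v0a4, Atp6v1g3 and Rhcg first as well, at means of 106, 102 and 100.1 FPKM, but all neighbours overlapped down to Foxi1 at 29.7 FPKM. In adenine kidneys Atp6v0a4 led with 36.2 ± 10.3 FPKM, Slc26a4 (3.27 ± 2.40) and Slc4a9 (2.95 ± 1.58) followed lower down, and Slc26a7 was last at 0.0670 ± 0.0174 FPKM. In adenine kidneys each neighbour from Atp6v0a4 down to Slc4a9 overlapped the next. In UUO kidneys the neighbours overlapped too, except that Atp6v1g3 lay above Atp6v0a4, Rhcg above Atp6v1b1 and Slc4a1 above Slc26a7.

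Other genes known from intercalated cells fell in part. Of 21 on the list, 17 were tested in the adenine model, where 9 were lower and 1 higher, with a median log2 fold change of -1.22 and 6 lower DEGs. In the UUO model 20 were tested, of which 12 were lower and 4 higher, with a median of -0.83 and 5 lower DEGs. All tested entries were lower in 19.9%, higher in 39.6% and lower DEGs in 5.03% with adenine. After UUO these shares were 14.4%, 56.1% and 4.21%. The counts of the list depended on the scaling. With equal sums in every sample 7 of its genes were lower and 2 higher with adenine and 10 and 4 after UUO. With median-of-ratios scaling the counts were 10 and 1, and 14 and 2. Insrr, an alkali-sensing receptor of type B cells, fell the most with adenine (log2 fold change -4.29), and Bsnd, the subunit barttin of the basolateral chloride channels, fell the most after UUO (-2.49). The receptor tyrosine kinase Kit rose the most with adenine (1.12), and the signalling adaptor Clnk rose the most after UUO (1.40, but 0.28 with an adjusted p of 0.438 under quantile normalization). By the ratio of means the log2 change of Clnk after UUO was 1.73, and in the adenine model Clnk did not reach the minimum FPKM. Genes of this list that reached the minimum through a single group were not set apart.

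The neighbouring principal cells share the collecting duct. Of their 12 genes, 8 were lower with adenine and 10 after UUO and none was higher in either, with medians of -1.05 and -1.74. Of all tested entries 19.9% were lower and 39.6% higher with adenine, and 14.4% and 56.1% after UUO. Elf5 reached the minimum after UUO only through the sham kidneys, so its lower level there was built in. With adenine the count of 8 depended on the scaling, at 5 with equal sums in every sample, 7 with quantile normalization and 9 with median-of-ratios scaling, and after UUO it was 10 or 12. The sodium pump regulator Fxyd4 fell the most in both (-2.11 and -4.04), whereas the factor Gata3, with -0.15 and 0.01, did not pass. In the thick limb and distal convoluted tubule 2 of 4 tested genes were lower with adenine (4 without control 2 and adenine 2) and 4 of 4 after UUO. Among 8 genes of bicarbonate and ammonia handling in the proximal tubule, 3 of 6 tested were lower and 2 higher with adenine, and 5 of 8 were lower and 1 higher after UUO. The glutamine transporter Slc38a3 fell the most in both (-3.66 and -5.36). The bicarbonate cotransporter Slc4a4 rose the most with adenine (4.53). Levels of Slc4a4 were 2.11, 0.135 and 0.493 FPKM in control and 5.83, 25.2 and 25.0 FPKM in adenine kidneys. Controls 2 and 3 were thus under the minimum of 0.5 FPKM. Of the 5 general proximal tubule markers 3 were lower in each model. All 7 urothelial and stratified epithelial markers were higher DEGs after UUO, against 13.2% of all tested entries. Their summed levels were 0.675 to 2.96 FPKM in sham and 167 to 210 FPKM in UUO kidneys. Except for Upk1a, these markers stayed under 0.5 FPKM in every sham kidney. They reached the minimum only through the UUO kidneys, so their higher level was built in. With adenine none of the 2 tested passed in limma, adjusted or not. The part of these other cell types in the values of the 10 genes was not tested.

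Across all 12 kidneys, with each table centred on its own mean, the gene whose log2 profile was most like that of Foxi1 was Hepacam2, an immunoglobulin-like adhesion molecule of intercalated cells (Pearson r = 0.976 over 12 samples). Others near the top were Atp6v1g3 (0.975), Prr35 (0.962), Atp6v1b1 (0.951), Pnpla4 (0.945) and the mucin gene Muc1 (0.943). Of 13485 symbols 0.282% had an r above 0.9, and the median was -0.51. Among the 10 genes Atp6v1c2 stood at rank 13, Slc4a1 at 27, Rhcg at 63, Slc4a9 at 91, Slc26a4 at 213, Atp6v0a4 at 799 and Slc26a7 at 1158. These correlations describe a shared fall across treatment groups and a shared low value in control 2, and the samples of a group share their treatment. Hepacam2 itself was at 16.5, 6.12 and 22.9 FPKM in control and 5.18, 2.93 and 1.64 FPKM in adenine kidneys, and its log2 fold change was -2.14 with adenine and -0.89 after UUO.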

How the data were processed

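RNA-seq libraries were made from poly(A) RNA with strand marking, and the authors deposited FPKM per gene in 2 tables that were processed separately. The submitters' processing notes name cutadapt 1.9, HISAT2 2.0.4, StringTie 1.3.4d, edgeR and DESeq2; the genome build and annotation are not given in the sources used here. Read numbers per sample are unknown: at most 3.01% of low genes shared 1 ratio between samples, so no depth could be recovered, and the precision of a value rests on the spread between 3 rats per group. Columns were assigned by their labels.

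Values were analysed as log2(FPKM + 0.1), which understates the change of low genes, for entries with at least 0.5 FPKM in at least 3 of 6 samples. Each table was fitted by itself with limma 3.58.1 (lmFit, eBayes with a trend) in R 4.3.3, with the Benjamini-Hochberg adjustment over all tested entries. DEGs were called at an adjusted p under 0.05 and a log2 fold change of 2 or more in size, after the thresholds of the study. The difference between models was divided by the root of the summed squared standard errors, with t on the summed degrees of freedom, over symbols listed once and tested in both tables. Ratios within a library were tested by an exact two-sided permutation test. Other steps used Python 3.11.15, numpy 2.4.6, pandas 2.3.3 and scipy 1.17.1. The fits were tested on simulated data.

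The genes and lists were chosen with earlier results of these data known. Besides the 10 genes and the partners of the ratio pairs, the genes with the largest rise and fall of each list and the 5 most like Foxi1 were named; Slc12a3, Calb1, Slc12a1, Umod, Pvalb, Rhag and Rhbg were named after their values were seen, and 2 genes that this rule names are not reported here. Alternatives were the value added before the logarithm, the minimum FPKM, the scaling, the trend, a replicate block and leaving out each sample.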

Additional observations from a re-analysis of the deposited data

Results flagged for a closer look

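The change of 3 genes differed between the models in the test of the difference itself, taken as the UUO minus the adenine log2 fold change. The difference was 2.71 for Slc26a4, 2.30 for Slc4a9 and 1.26 for Atp6v1c2, in each case with the deeper fall in the adenine model. The adjusted p from limma's standard errors was 0.0342, 0.0495 and 0.0365. These are 3 of 10 genes, against 27.0% of 13486 symbols called by the same rule, and the count fell to 0 with the replicate block and without control 1, control 3 or adenine 3. Agent, duration, route and table differ together between the models and cannot be told apart.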

How the results depend on the processing

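All 10 genes were lower at an adjusted p under 0.05 in all 160 values of the other settings of the adenine model and in all 150 of the UUO model, with highest adjusted p-values of 0.0484 and 0.0402. The DEG count ran from 6 to 9 in the adenine model (9 with control 2 and adenine 2 left out, a setting chosen after seeing the data) and from 3 to 6 in the UUO model. The count of genes whose change differed between the models, 3, moved most: it was 1 with median-of-ratios scaling, 1 without the trend, 5 with control 2 and adenine 2 left out, and 0 to 5 on leaving out a single kidney; it was 1 without adenine 1, sham 1, sham 2 or UUO 1. The call for Slc4a9 was lost in 16 of 22 settings, for Atp6v1c2 in 13 and for Slc26a4 in 6. The log2 ratio of Atp6v1c2 to Atp6v1c1 after UUO differed by -1.66, and by -1.56 with 1 added before the logarithm.

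With the replicate number as a replicate block the DEG counts stayed at 7 and 4, and no difference between the models was called (0 of 10, with 4 under 0.05 unadjusted). The numbers share no animal, since each group had its own rats. After each group's own mean was removed, same-numbered control and adenine kidneys correlated at -0.08, -0.12 and -0.05. Kidneys of unlike number there gave -0.04 to 0.11. Sham and UUO kidneys of the same number gave 0.05, 0.105 and 0.06, and those of unlike number -0.08 to 0.02. The same-numbered values were thus the lowest with adenine and the highest after UUO. Where a left-out kidney leaves 2 in a group, the spread is pooled over 5 samples. Depth is unknown, so no limit of detection could be given.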
